A study of Mus musculus with 12 samples.

Results

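The genes described here are the replication-dependent histone genes of the mouse, taken as the rows whose symbol begins with Hist1h, Hist2h, Hist3h or Hist4h and whose level reached 1 TPM (a level per transcript length, scaled to the same total in every library) in at least 3 of 12 libraries. After 1 pseudogene row was left out, 69 rows of the 55421 in the table carried such a symbol and 62 of them met the level. By class these were 5 H1, 16 H2A, 16 H2B, 12 H3 and 13 H4 genes. The 7 rows below the level were Hist1h1t, Hist1h2aa, Hist1h2ba, Hist1h2aj, Hist1h2al, Hist2h2aa1 and Hist3h2ba, the first 3 of which are testis types. RNA had been taken from intestinal epithelial cells of the mouse jejunum in 4 groups of 3 libraries, labelled Fzd5KO and Ctrl, each at day 1 and day 3. Fzd5 encodes the Wnt receptor Frizzled 5. The sources used here do not give the allele, the promoter or Cre line that removed the gene, the age of the mice, the event from which the days were counted, or whether each library came from its own animal. P-values therefore measure only how far these libraries spread, and that spread may be technical.

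Histones H2A, H2B, H3 and H4 form the core around which DNA is wound into a nucleosome, and the linker histone H1 binds where the DNA enters and leaves it. The replication-dependent genes lie in clusters, have no introns as a rule, and are expressed mainly while DNA is copied, when new chromatin needs histone protein. Their mRNAs end in a short stem-loop in place of a poly(A) tail, although some of these genes can also give polyadenylated transcripts. In the intestinal epithelium DNA is copied by the dividing cells of the crypts, and the villus cells have left the cell cycle. The libraries were made from total RNA with a stranded kit, so a transcript without a poly(A) tail could be captured.

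The stem-loop is shown because it marks this mRNA class. A search of the annotated mm10 transcripts (GENCODE mouse release 21) for a left arm GGNNNT, a loop TNTN and a right arm ANNNCC, read on the transcript strand and with all 6 bases of the arms paired, found it in 43 of the 62 genes (69.4%), against 69 of 21901 protein-coding genes (0.315%). The commonest form was held by 24 genes, among them Hist1h1c, Hist1h2ao, Hist1h2bm and Hist1h3b, and 7 H4 genes shared another. Hist1h4a and Hist1h4i each differed from that H4 form in the loop. Capitals mark the paired stem and lower case the loop.
24 genes of H1, H2A, H2B and H3: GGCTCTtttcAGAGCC
7 H4 genes, among them Hist1h4h, Hist1h4f and Hist1h4m: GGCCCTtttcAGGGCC
5 genes of H2B and H3, among them Hist1h2bb: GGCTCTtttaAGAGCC
Hist1h4a: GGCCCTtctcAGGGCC
Hist1h4i and Hist2h4: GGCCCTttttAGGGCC

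The annotated Hist1h4h transcript went on for 46 bases after the stem-loop and that of Hist1h2ao for 31. The annotated transcripts of Hist1h4i and Hist1h1c, with small day 3 changes below, went on for 330 and 840 bases, and that of Hist3h2a for 1643. Those of Hist1h4j, Hist1h1e and Hist1h1d, with larger day 3 falls below, went on for 385, 1153 and 4884 bases. These lengths were not tested against the changes in level. Hist1h1a, Hist1h2bc, Hist1h2bq and Hist1h2br were among the 19 genes with no match in an annotated transcript, which says only that these letters are not in the annotated sequence.

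Promoters are shown to describe the genes, and their motifs were not tested against the changes in level. RefSeq windows (GRCm38.p6) from 250 bases before to 50 after the start were found for 57 of the 62 genes and were searched on both strands. The TATA letters TATAAA were present in 31 of 57 (54.4%), against 14.2% of all 27025 promoters of the same length. The letters CCAAT were present in 48 of 57 (84.2%), against 37.9% of all promoters, and in every H1, H2A, H2B and H3 window but only 3 of 12 H4 windows. The octamer ATTTGCAT, a binding sequence of Oct-1, was present in 11 of 57 (19.3%), against 1.75% of all promoters, and these were 6 H2A and 5 H2B genes. In 9 H2A and H2B pairs that face away from each other the windows overlapped, so 18 genes share part of the sequence. The searched motifs do not overlap one another in the windows below, where capitals mark them on either strand and the last window holds none.
Hist1h1a, chr13:23763418-23763717, plus strand: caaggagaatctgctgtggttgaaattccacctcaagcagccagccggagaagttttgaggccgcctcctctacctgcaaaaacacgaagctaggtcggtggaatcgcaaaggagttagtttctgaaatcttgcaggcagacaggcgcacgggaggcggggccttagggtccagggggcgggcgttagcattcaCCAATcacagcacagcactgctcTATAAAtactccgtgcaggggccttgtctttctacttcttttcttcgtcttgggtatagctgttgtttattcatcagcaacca
Hist1h2bg, chr13:23571150-23571449, plus strand: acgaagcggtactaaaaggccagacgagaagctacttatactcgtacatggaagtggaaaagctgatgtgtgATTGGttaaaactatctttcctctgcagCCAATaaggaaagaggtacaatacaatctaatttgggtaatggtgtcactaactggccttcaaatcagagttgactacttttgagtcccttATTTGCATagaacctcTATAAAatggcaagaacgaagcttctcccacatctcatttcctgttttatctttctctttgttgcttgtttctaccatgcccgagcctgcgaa
Hist1h4h, chr13:23530794-23531093, plus strand: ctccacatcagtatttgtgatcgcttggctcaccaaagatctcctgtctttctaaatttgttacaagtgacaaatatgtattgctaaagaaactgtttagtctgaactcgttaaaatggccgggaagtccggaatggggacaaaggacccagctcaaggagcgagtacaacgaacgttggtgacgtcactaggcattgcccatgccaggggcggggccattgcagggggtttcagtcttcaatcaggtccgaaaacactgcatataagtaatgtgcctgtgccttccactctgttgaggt

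Of the 62 genes, 51 lie in the Hist1 cluster on chromosome 13 (21715763 to 23764406, mm10), 9 in the Hist2 cluster on chromosome 3 (96219865 to 96270132), and Hist3h2a on chromosome 11 and Hist4h4 on chromosome 6 alone. All 62 are annotated as protein-coding, and 56 were at 1 TPM or more in all 12 libraries. The other 6 were Hist1h2ap, Hist1h2bq, Hist1h2br, Hist1h4n, Hist2h2be and Hist2h3c1, of which Hist1h2ap, Hist1h2bq and Hist1h4n were listed at 0 in at least 1 library. Many of these genes are near-identical copies between which the read assignment can be split in different ways, so class sums are given beside single genes.

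Fzd5 itself was 31.9, 33.1 and 33.1 TPM in Fzd5KO at day 1, against 43.5, 49.4 and 46.8 TPM in Ctrl, and 39.7, 37.8 and 38.3 TPM in Fzd5KO at day 3, against 68.2, 65.9 and 60.5 TPM in Ctrl. Every Fzd5KO library was thus below every Ctrl library on both days, while the sources used here do not say which stretch of it was deleted. The depth of the libraries is unknown, since TPM keeps none. The 8 epithelial markers summed to 5346 to 8012 TPM over the 12 libraries, and none was at 0. The median of all tested genes was lower in Fzd5KO by a log2 difference of −0.14 on both days. Quantile normalization brought it to −0.00040 and −0.04 on the 2 days, and scaling by the median of ratios to 0.00033 and −0.02. Rescaling without mitochondrial, predicted, small RNA and the 20 most abundant genes gave −0.05 and −0.22. The abundant small RNAs 7SL and 7SK made up 26.2 to 27.2% of all TPM in Fzd5KO at day 1, against 22.9 to 25.7% in Ctrl, and 19.7 to 21.9% in Fzd5KO at day 3, against 19.8 to 21.1% in Ctrl.

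Ctrl day 1 replicate 1 and Ctrl day 3 replicate 3 stood apart in histone mRNA. The first of them also stood apart over the whole table, with 24467 genes above 0, against 21506 to 22613 in the other libraries. Over tested genes, its log2 differences from replicates 2 and 3 had SDs of 0.43 and 0.44. The other pairs of replicates within a group had SDs of 0.31 to 0.37. The median histone gene in Ctrl day 1 replicate 1 was at 77.8% of the mean of replicates 2 and 3, while the median of all tested genes was at 98.0%, and this library was the lowest of its group for 51 of 62 genes. By class the median was 94.4% for H1, 58.9% for H2A, 81.4% for H2B, 67.6% for H3 and 81.4% for H4. Ctrl day 3 replicate 3 was at 82.3% of its group's other libraries for the median histone gene, against 94.4% for all genes, and was lowest for 58 of 62. The share of all tested genes that were lowest in each of these libraries was not taken, so the 51 and the 58 have no background beside them. Counts below for day 1, day 3 and the difference between the days are given also without both of these libraries, a choice made after seeing the data.

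At day 3 histone mRNA was lower in Fzd5KO in all 5 classes. Summed over the 62 genes it was 3037, 3230.2 and 3190.3 TPM in Fzd5KO, against 7248, 6996 and 5820.4 TPM in Ctrl. The 3 Fzd5KO libraries lay close together and all were below the lowest Ctrl library, with means of 3152 ± 102 TPM in Fzd5KO and 6688 ± 762 TPM in Ctrl (SD, n = 3 each), so the Fzd5KO sum was 47.1% of the Ctrl sum. In bulk RNA, fewer cells that make histone mRNA and less histone mRNA per cell cannot be told apart.

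**Figure D1:**
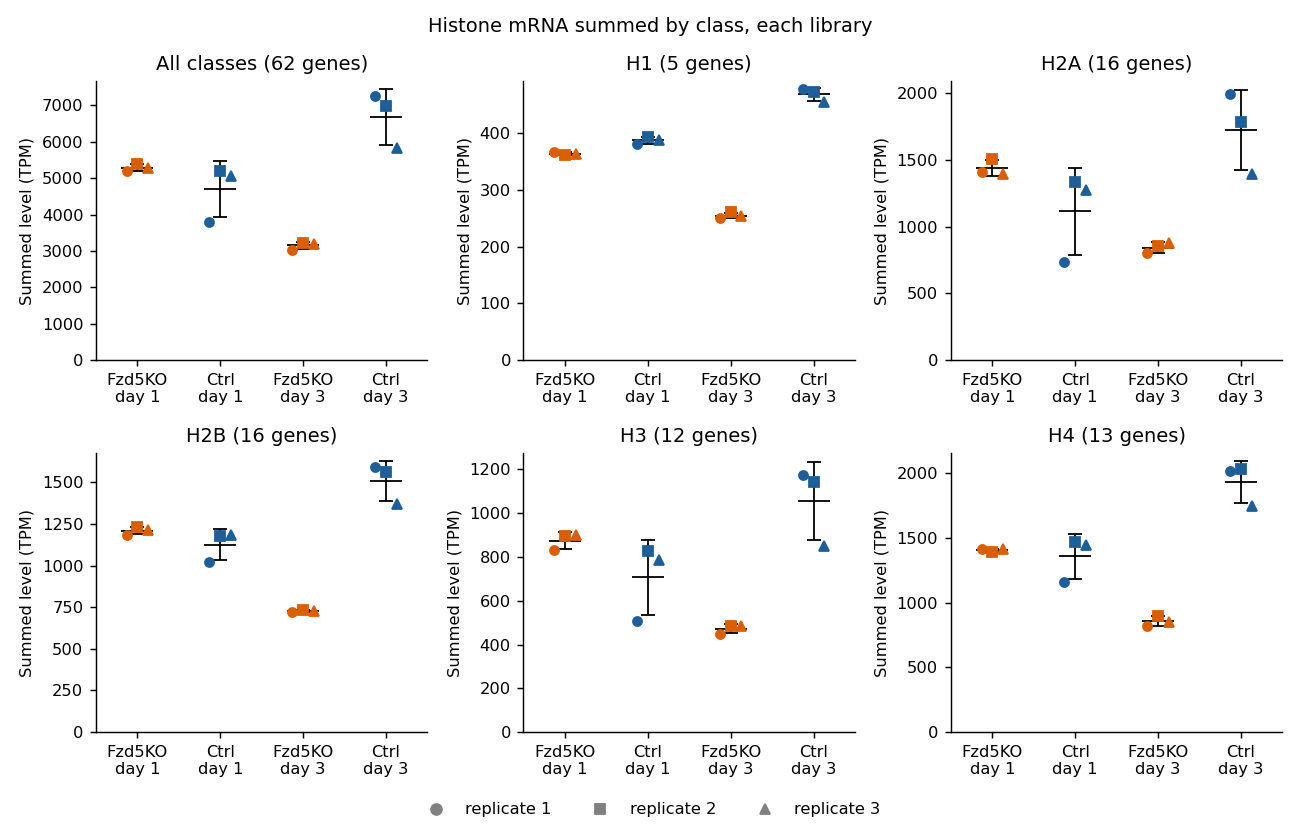
Summed TPM of histone genes in each library, for all 62 genes and for each class; points are libraries, the long bars group means and the whiskers SD (n = 3), and each vertical axis starts at 0. At day 3 every Fzd5KO point lies below every Ctrl point in all 6 panels, and the circle of Ctrl day 1 and the triangle of Ctrl day 3 lie low in H2A and H3.

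Gene by gene, 57 of the 62 fell in Fzd5KO at day 3 and none rose (limma on log2(TPM + 1), Benjamini-Hochberg adjusted p under 0.05 over 14510 tested genes), where 38.5% of all tested genes fell and 24.3% rose. At an unadjusted p under 0.05 the counts were also 57 and 0. Shares of all tested genes that fell, rose or were called, here and below, are at the adjusted threshold. None was taken at an unadjusted p. All 62 log2 differences were negative, with a median of −1.11 against −0.14 for all tested genes. Without both lower Ctrl libraries 58 fell. All Fzd5KO libraries were below all Ctrl libraries for 57 genes, where this held for 40.8% of all tested genes and the reverse for 25.7%, and 5 overlapped. The 5 that did not pass the test were Hist1h2ap, Hist1h2bc, Hist1h3h, Hist1h4n and Hist2h3c1.

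The 5 linker histone genes summed to 249.9, 260.2 and 253.9 TPM in Fzd5KO at day 3, against 477, 473 and 455 TPM in Ctrl, or 54.4% of the Ctrl mean. Hist1h1a, the most abundant of them and the gene of H1.1, was 58.7, 60.9 and 56.0 TPM in Fzd5KO and 143, 143 and 140.3 TPM in Ctrl. The groups were far apart for their spread, with a log2 change of −1.27 ± 0.034 (SE; limma, adjusted p = 1.3e-10). Hist1h1b (−1.09 ± 0.042), Hist1h1e (−0.98 ± 0.054) and Hist1h1d (−0.98 ± 0.055) also fell. The fifth, Hist1h1c, which encodes H1.2, changed far less and is described with the exceptions.

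Among the core histones the H2A genes were at 48.9% of the Ctrl sum at day 3, H2B at 48.1%, H3 at 44.7% and H4 at 44.4%. Of these, 15 of 16 H2A, 15 of 16 H2B, 10 of 12 H3 and 12 of 13 H4 genes fell. The most abundant H2A gene, Hist1h2ao, was 243, 284 and 288 TPM in Fzd5KO, against 697, 596 and 416 TPM in Ctrl, so the groups did not overlap although Ctrl varied widely (log2 change −1.04 ± 0.24, limma adjusted p = 0.0028). Hist2h2aa2, the next in level, was at 288 ± 8.63 TPM in Fzd5KO and 512 ± 62.2 TPM in Ctrl (log2 change −0.82 ± 0.15). Among the H2B genes Hist2h2bb was at 127 ± 4.21 TPM in Fzd5KO and 238 ± 9.34 TPM in Ctrl (−0.90 ± 0.050). Hist1h2bb, at 86.7 ± 1.91 TPM in Fzd5KO and 204 ± 4.02 TPM in Ctrl (SD, n = 3 each), changed by −1.22 ± 0.084. Hist1h2bn (−1.34 ± 0.077) and Hist1h2bm (−1.40 ± 0.11) fell further than either.

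The leading H3 gene, Hist1h3b, was 71.0, 80.9 and 72.2 TPM in Fzd5KO at day 3, against 219, 200 and 163 TPM in Ctrl. Its groups were well separated (log2 change −1.36 ± 0.13, limma adjusted p = 3.9e-06). Hist2h3b changed by −1.19 ± 0.27 and Hist1h3g by −1.13 ± 0.11. Hist1h4h, the H4 gene with the highest level and the one whose promoter is shown above without any of the 3 motifs, was 150.3, 202 and 152 TPM in Fzd5KO, against 458, 451 and 372 TPM in Ctrl (−1.35 ± 0.15). Hist1h4a had the largest fall of the H4 genes that passed the test, to 15.1, 16.3 and 17.8 TPM in Fzd5KO against 57.9, 56.4 and 53.7 TPM in Ctrl (−1.72 ± 0.10, limma adjusted p = 6.65e-08). Hist1h4f (−1.43 ± 0.078), Hist1h4j (−1.29 ± 0.13), Hist1h4k (−1.17 ± 0.13) and Hist1h4m (−0.94 ± 0.085) also fell.

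**Figure D2:**
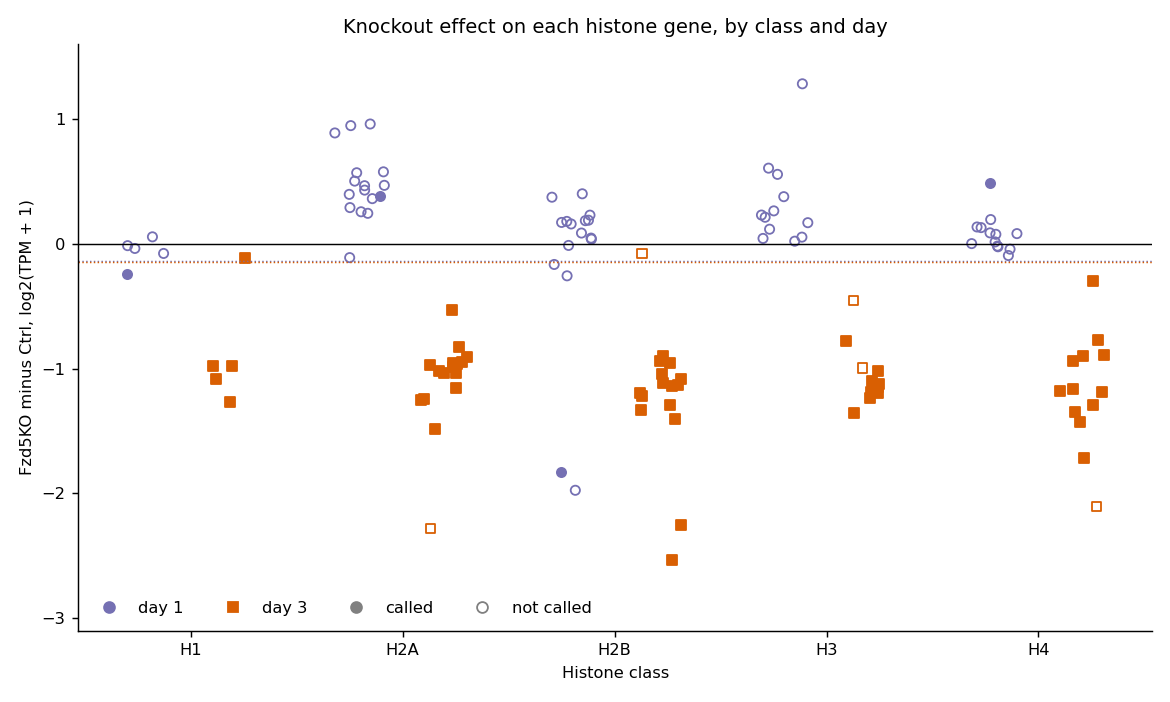
Difference in log2(TPM + 1) between Fzd5KO and Ctrl for each of the 62 histone genes by class, at day 1 (circles) and day 3 (squares); filled symbols passed the test, and the dotted lines, at −0.14 for both days, are the medians of all tested genes. The day 3 squares lie below 0 in every class, mostly near −1, while most day 1 circles lie at or above 0.

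The largest falls were those of a pair of H2B copies, Hist1h2bq and Hist1h2br, and are uncertain. At day 3 Hist1h2bq was 4.73, 0 and 4.64 TPM in Fzd5KO, against 18.6, 26.3 and 10.8 TPM in Ctrl (log2 change −2.54 ± 0.76, limma adjusted p = 0.013). Without Fzd5KO day 3 replicate 2, the library listed at 0, the change was −1.70 and no longer passed (limma adjusted p = 0.051). Hist1h2br was 5.82, 1.28 and 3.63 TPM in Fzd5KO and 19.4, 27.6 and 12.4 TPM in Ctrl (−2.25 ± 0.55). The sum of the pair was 10.6, 1.28 and 8.27 TPM in Fzd5KO, against 38.0, 53.9 and 23.2 TPM in Ctrl, so the groups did not overlap for the sum either. The H2A gene Hist1h2ah was 3.15, 2.58 and 9.0 TPM in Fzd5KO, against 15.3, 15.8 and 10.9 TPM in Ctrl (−1.49 ± 0.49, limma adjusted p = 0.020). It lost its call when Fzd5KO day 3 replicate 1, Fzd5KO day 3 replicate 2, Ctrl day 3 replicate 1 or Ctrl day 3 replicate 2 was left out (adjusted p between 0.056 and 0.078) and with no filter on low values.

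Some genes had small differences at day 3, and Hist1h2bc, Hist1h4i and Hist3h2a were picked out after their values were seen, as was Hist1h1c. Hist1h1c was 80.1, 81.0 and 78.1 TPM in Fzd5KO, against 88.8, 87.1 and 83.4 TPM in Ctrl, a small step without overlap (log2 change −0.11 ± 0.040, limma adjusted p = 0.028). With median-of-ratios scaling the difference was 0.028, of the other sign and not called, and the call was also lost when Fzd5KO day 3 replicate 1, Fzd5KO day 3 replicate 3, Ctrl day 3 replicate 1 or Ctrl day 3 replicate 2 was left out (adjusted p between 0.055 and 0.096) or no intensity trend was fitted. Its share of the H1 sum was 31.3 ± 0.668% in Fzd5KO at day 3 and 18.5 ± 0.134% in Ctrl, and that of Hist1h1a was 23.0 ± 0.817% in Fzd5KO and 30.3 ± 0.468% in Ctrl (SD, n = 3 each). The most abundant H1 gene thus was Hist1h1c in Fzd5KO at day 3 and Hist1h1a in Ctrl.

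Hist1h2bc, an H2B gene, was 89.6, 95.1 and 87.0 TPM in Fzd5KO at day 3, against 98.5, 100.7 and 87.7 TPM in Ctrl, and the groups overlapped (log2 difference −0.08 ± 0.078, limma adjusted p = 0.42). The difference was 0.07 with median-of-ratios scaling, and past the test at −0.22 with quantile normalization, −0.17 with rescaled TPM and −0.14 without both lower Ctrl libraries. Its share of the H2B sum was 12.5 ± 0.544% in Fzd5KO and 6.34 ± 0.136% in Ctrl. Hist1h4i was 9.77, 11.5 and 11.6 TPM in Fzd5KO, against 12.9, 14.0 and 14.3 TPM in Ctrl (−0.30 ± 0.11, limma adjusted p = 0.029). It lost its call with quantile or median-of-ratios scaling (adjusted p = 0.35 and 0.23 in limma), with no filter, without both lower Ctrl libraries, and when Fzd5KO day 3 replicate 1 or Ctrl replicate 2 or 3 of that day was left out. Hist3h2a fell by 0.53 ± 0.074 on the log2 scale.

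**Figure D3:**
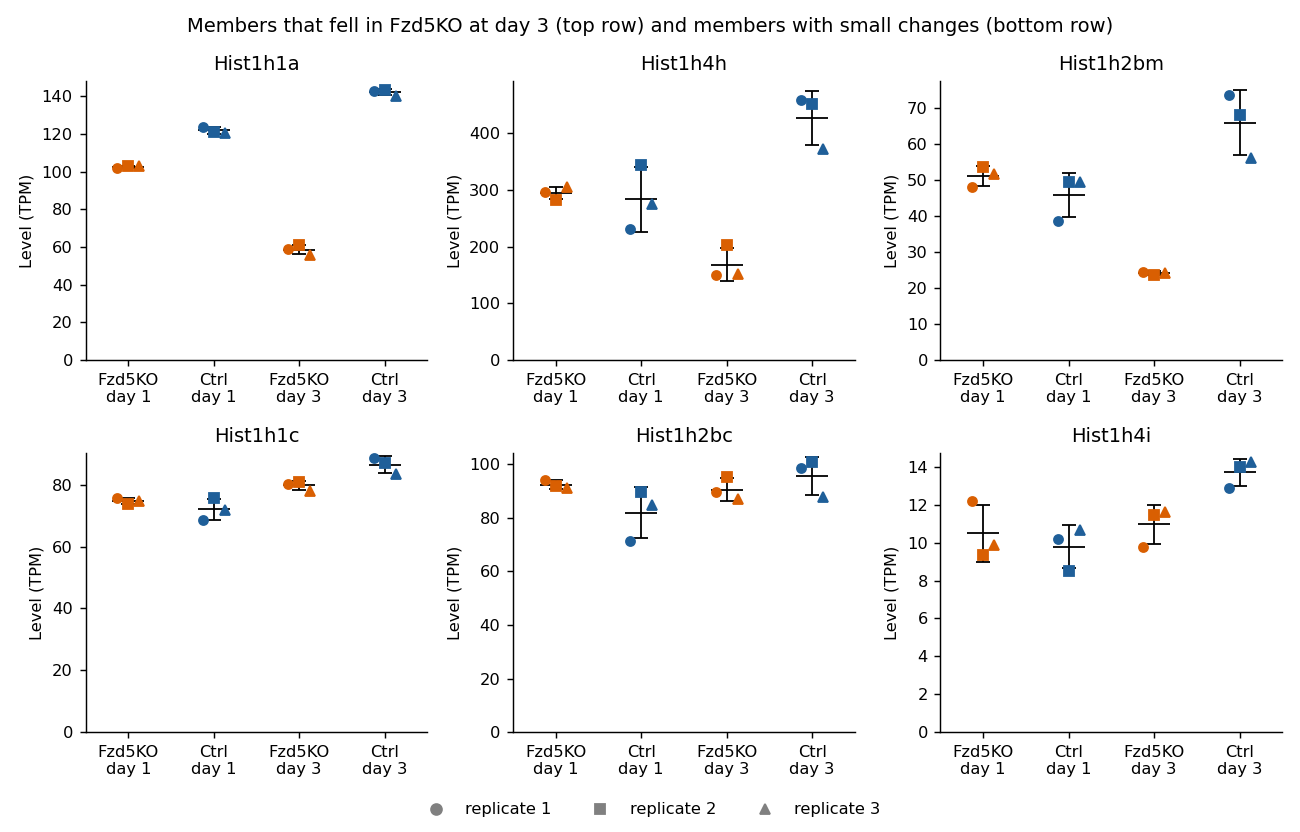
TPM in each library for 3 genes that fell at day 3 (top row: Hist1h1a, Hist1h4h, Hist1h2bm) and 3 with small day 3 changes (bottom row: Hist1h1c, Hist1h2bc, Hist1h4i); points are libraries, bars means and whiskers SD (n = 3), and each axis starts at 0. In the top row the day 3 Fzd5KO points lie near 58.5, 168 and 24.1 TPM, against 142, 427 and 65.9 TPM in Ctrl, whereas in the bottom row they lie near 79.7, 90.6 and 11.0 TPM, against 86.4, 95.6 and 13.7 TPM in Ctrl.

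The remaining uncalled genes, named after their values were seen, had low or uneven values. Hist1h2ap, a copy of Hist1h2ao, was 0, 0 and 3.41 TPM in Fzd5KO at day 3, against 0, 10.2 and 43.8 TPM in Ctrl, and its log2 difference of −2.28 went to −3.77, past the test (limma adjusted p = 0.0027), without Ctrl day 3 replicate 1 and to −1.03 without Ctrl day 3 replicate 3. Hist1h4n, a copy of Hist1h4m, was 8.62, 0 and 0 TPM in Fzd5KO and 20.2, 4.79 and 5.24 TPM in Ctrl, and passed the test without Fzd5KO day 3 replicate 1 (−3.19, limma adjusted p = 0.012; −2.10, limma adjusted p = 0.090, in the fit of all libraries). Read as sums, Hist1h2ao with Hist1h2ap was at 46.5% of Ctrl and Hist1h4m with Hist1h4n at 51.5%, near their class values. Hist1h3h was 31.7, 45.8 and 64.7 TPM in Fzd5KO, against 129, 113 and 53.0 TPM in Ctrl, where the groups overlapped through Ctrl day 3 replicate 3. It passed the test without Ctrl day 1 replicate 1 (limma adjusted p = 0.017, log2 difference −0.99 as before) and without both lower Ctrl libraries (−1.38). Hist2h3c1 stayed between 0.220 and 2.0 TPM in both groups at day 3.

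Markers of other cells moved with the groups as well. Counts are of tested genes, while sums cover every gene of a list, tested or not. The lists held 12 T cell, 8 B and plasma cell, 9 myeloid, 7 erythroid and 8 fibroblast and smooth muscle genes. At day 3, 11 of 11 tested T cell and intraepithelial lymphocyte markers rose in Fzd5KO, with sums of 182 to 208 TPM against 48.7 to 52.6 TPM in Ctrl, and 7 of 7 B and plasma cell markers rose, with sums of 141 to 169 TPM against 32.7 to 46.2 TPM in Ctrl. Of 6 myeloid markers 5 rose (30.4 to 38.4 TPM in Fzd5KO, 14.3 to 14.9 TPM in Ctrl), and 5 of 5 erythroid markers fell (54.4 to 69.5 TPM in Fzd5KO, 201 to 228 TPM in Ctrl). None of 4 fibroblast and smooth muscle markers passed the test (10.6 to 12.7 TPM in Fzd5KO, 8.93 to 10.5 TPM in Ctrl). All 10 crypt-base stem cell markers fell, with sums of 102 to 110.3 TPM in Fzd5KO against 708 to 759 TPM in Ctrl. Fewer crypt-base cells and less of these mRNAs per cell cannot be told apart in bulk RNA. Of 8 epithelial markers 7 rose, among them Vil1 and Krt20 of villus cells (1.09 ± 0.032 and 1.28 ± 0.031 on the log2 scale), and Krt18 fell. No gene of these lists, tested or not, was at 0 in all libraries, and the part of these cells in the fall of histone mRNA was not tested. At day 1, where histone sums were not lower outside H1, 9 of the 10 crypt-base markers had fallen (159 to 167 TPM in Fzd5KO, 480.1 to 502 TPM in Ctrl) and 5 of the 11 T cell markers (129 to 151 TPM in Fzd5KO, 195 to 216 TPM in Ctrl). Of the erythroid markers 3 of 5 fell at day 1 (54.2 to 67.7 TPM in Fzd5KO, 88.5 to 109 TPM in Ctrl), of the B and plasma cell markers 2 of 7 (means of 22.1 TPM in Fzd5KO and 36.8 TPM in Ctrl, with no overlap) and of the fibroblast and smooth muscle markers 1 of 4 (6.13 to 7.85 TPM in Fzd5KO, 9.64 to 11.8 TPM in Ctrl). None of the 6 myeloid markers passed the test at day 1 (17.5 to 19.7 TPM in Fzd5KO, 18.5 to 20.1 TPM in Ctrl). Of the 8 epithelial markers 3 rose and 1 fell (5514 to 5694 TPM in Fzd5KO, 5347 to 5508 TPM in Ctrl). Over all tested genes 22.8% fell and 2.13% rose at day 1, and 38.5% fell and 24.3% rose at day 3. The B and plasma cell and the fibroblast and smooth muscle counts at day 1 were not far from that 22.8%. Under the 3 other scalings 4 T cell and 2 erythroid markers fell at day 1. Of the B and plasma cell markers 1 fell with quantile or median-of-ratios scaling and 4 with rescaled TPM.

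At day 1 the picture was different. The sum of the 62 genes was 5204, 5381 and 5283 TPM in Fzd5KO, against 3803, 5194 and 5073 TPM in Ctrl, with means of 5289 ± 88.6 TPM in Fzd5KO and 4690.2 ± 770.4 TPM in Ctrl (SD, n = 3 each). All Fzd5KO libraries were above all Ctrl libraries, but by little over replicates 2 and 3 of Ctrl, and the log2 ratio of the means was 0.17, or 0.04 without Ctrl day 1 replicate 1. By class the Fzd5KO mean was 93.9% of Ctrl for H1, 129% for H2A, 107% for H2B, 124% for H3 and 104% for H4. The H1 sums, 366, 361 and 363 TPM in Fzd5KO, were below the 380.2, 393 and 388 TPM of Ctrl, a log2 ratio of −0.09 that turned to 0.073 with median-of-ratios scaling and 0.02 with rescaled TPM. The H4 sums overlapped. Without Ctrl day 1 replicate 1 the log2 ratio was 0.14 for H2A (0.37 with it), 0.036 for H2B (0.10), 0.12 for H3 (0.31) and −0.05 for H4 (0.05).

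Gene by gene, 2 of 62 fell and 2 rose at day 1, where 22.8% of all tested genes fell and 2.13% rose. At an unadjusted p under 0.05 in limma, 3 of the 62 fell and 11 rose, counts to which the 22.8% and 2.13% of adjusted calls do not compare. The log2 difference was positive for 48 and negative for 14, with a median of 0.17 against −0.14 over all tested genes. Of the 62, 6 had all Fzd5KO libraries below all Ctrl libraries (38.9% of all tested genes) and 13 above (4.52%). The genes that fell were Hist1h1a, at 102, 103 and 103 TPM in Fzd5KO against 124, 121 and 120.5 TPM in Ctrl (log2 change −0.25 ± 0.034, limma adjusted p = 0.00064; not called with median-of-ratios scaling), and Hist1h2br (−1.83 ± 0.55), which moved to −1.15 and lost its call without Fzd5KO day 1 replicate 1 and lost it also when Ctrl replicate 1 or 2 of that day was left out. Those that rose were Hist4h4, at 16.7, 17.6 and 16.8 TPM in Fzd5KO against 9.35, 13.2 and 13.5 TPM in Ctrl (0.49 ± 0.12, limma adjusted p = 0.013), and Hist1h2ac (0.38 ± 0.12, adjusted p = 0.047), which was 0.25 and not called without Ctrl day 1 replicate 1. Hist1h2ac lost its call in 9 of the 12 fits that left out 1 library. Hist1h2br was not called with quantile normalization, median-of-ratios scaling, no filter, the replicate number as a block, or only the libraries compared. The limma adjusted p of Hist1h2br in these fits was between 0.055 and 0.089. Summed with its copy Hist1h2bq it was 1.0, 11.5 and 13.6 TPM in Fzd5KO at day 1, against 31.9, 39.1 and 21.3 TPM in Ctrl.

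These day 1 counts moved with single libraries and with the scale. The number that fell was 1 when Fzd5KO day 1 replicate 1, or Ctrl replicate 1 or 2 of that day, was left out. The number that rose was 4 without Ctrl day 1 replicate 2 and 5 without Ctrl day 1 replicate 3. It was 1 without any other of the libraries except Fzd5KO day 1 replicate 1, Ctrl day 3 replicate 1 and Ctrl day 3 replicate 3, and 1 without both lower Ctrl libraries. With median-of-ratios scaling 18 rose and 0 fell, where 8.8% of all tested genes rose and 6.28% fell. With quantile normalization 9 rose and 1 fell, where 5.86% of all tested genes rose and 6.34% fell.

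The Fzd5KO effect at day 3 minus that at day 1 was negative for all 62 genes, with a median of −1.32 against 0.01 for all tested genes. The difference passed the test for 54 genes, all with the day 3 effect the lower (55 without both lower Ctrl libraries, and 57 at an unadjusted p under 0.05, with none in the other direction), where 19.1% of all tested genes were called in that direction and 25.3% in the other. Every H1 gene was among them, Hist1h1c with −0.17 ± 0.057 (limma adjusted p = 0.031) and Hist1h1a with −1.02 ± 0.048. The larger differences included Hist1h2ab (−1.82 ± 0.33), Hist1h4a (−1.70 ± 0.15), Hist1h3b (−1.59 ± 0.19) and Hist1h2bm (−1.56 ± 0.15). Without Ctrl day 1 replicate 1 they were −1.53, −1.59, −1.44 and −1.45, in that order. Averaged over both days, 41 genes were called lower in Fzd5KO and none higher (limma; the same counts at an unadjusted p under 0.05), where 41.3% of all tested genes were called lower and 17.6% higher.

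The groups also moved in opposite directions over time. In Fzd5KO, 50 of the 62 genes fell between day 1 and day 3 and none rose, where 10.5% of all tested genes fell and 34.4% rose. In Ctrl, 43 rose and none fell, where 25.0% of all tested genes rose and 11.0% fell. With each library left out, 32 to 46 rose in Ctrl and 47 to 52 fell in Fzd5KO. At an unadjusted p under 0.05, 51 fell and 1 rose in Fzd5KO, and 50 rose and none fell in Ctrl. No share of all tested genes was taken at that threshold. Both called changes held for 39 of the 62 genes, and for 5.55% of all tested genes (806 of 14510). The summed level at day 3 was 59.6% of that at day 1 in Fzd5KO and 142.6% in Ctrl. By class it was 70.1% for H1, 58.6% for H2A, 60.1% for H2B, 54.0% for H3 and 61.0% for H4 in Fzd5KO. In Ctrl it was 121% for H1, 155% for H2A, 134% for H2B, 149.5% for H3 and 142% for H4. For the sum of all 62 genes in Ctrl the log2 ratio of 0.51 ranged from 0.38 to 0.60 with each library left out. These comparisons share libraries with the genotype comparisons above.

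Among single genes the falls in Fzd5KO over time were led by Hist1h2ah (log2 change −1.76 ± 0.49), Hist1h2af (−1.18 ± 0.27), Hist1h4a (−1.08 ± 0.10), Hist2h3b (−1.07 ± 0.27) and Hist1h2bm (−1.05 ± 0.11), and Hist1h2ah lost its call without Fzd5KO day 3 replicate 2 (−1.48, limma adjusted p = 0.0502). The rises in Ctrl were led by Hist2h2ab, at 9.88, 7.13 and 6.68 TPM at day 3 against 2.61, 3.23 and 4.30 TPM at day 1 (1.02 ± 0.22, limma adjusted p = 0.0042). Hist1h2ab (0.84 ± 0.24), Hist1h2ak (0.82 ± 0.20) and Hist1h3b (0.67 ± 0.13) also rose, and the first 2 were 0.55 and 0.54 without Ctrl day 1 replicate 1. Hist1h2ab lost its call without Ctrl day 3 replicate 1 or 2, and with only the libraries compared (limma adjusted p = 0.064). Hist1h2ao (0.73 ± 0.24) was 0.42 and not called without Ctrl day 1 replicate 1, and lost its call also without Ctrl day 3 replicate 1 or 2. It was not called either with quantile normalization, median-of-ratios scaling, no filter or only the libraries compared (limma adjusted p between 0.069 and 0.107). Hist1h1c rose in Ctrl (0.26 ± 0.040, limma adjusted p = 0.00055) and was at 0.09 ± 0.040 in Fzd5KO, which did not pass the test.

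Genes of DNA replication give the nearest comparison, since histone mRNA is made while DNA is copied. Of 36 such genes 35 fell in Fzd5KO at day 3 (median −0.95) and 17 at day 1 (median −0.28), and none rose, beside a median of −0.14 over all tested genes on both days. The share of all tested genes that fell was 38.5% at day 3 and 22.8% at day 1. Under rescaled TPM, quantile or median-of-ratios scaling 6 to 7 replication genes fell at day 1 and 33 to 36 at day 3, and none rose. Mcm7, a subunit of the replicative helicase, was at 20.5 TPM in Fzd5KO and 48.3 TPM in Ctrl at day 3 (log2 change −1.20 ± 0.049) and at 28.9 TPM in Fzd5KO and 36.6 TPM in Ctrl at day 1 (−0.33 ± 0.049). Pcna, the sliding clamp of the polymerases, changed less at day 3 (−0.48 ± 0.040). The replication genes summed to 52.5% of Ctrl at day 3 and 83.6% at day 1, and 20 mitosis genes to 50.9% and 84.4%.

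The ratio of the histone sum to the replication sum was 9.94, 10.4 and 10.3 in Fzd5KO at day 1, against 6.20, 8.08 and 8.39 in Ctrl, so every Fzd5KO library was above every Ctrl library. At day 3 it was 7.67, 8.0 and 8.05 in Fzd5KO, against 9.26, 9.29 and 7.87 in Ctrl, and the groups overlapped. Within Fzd5KO the ratio was lower in every day 3 library than in every day 1 library. No test was run on these ratios, and the lowest Ctrl value of each day came from the 2 libraries that stood apart.

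**Figure D4:**
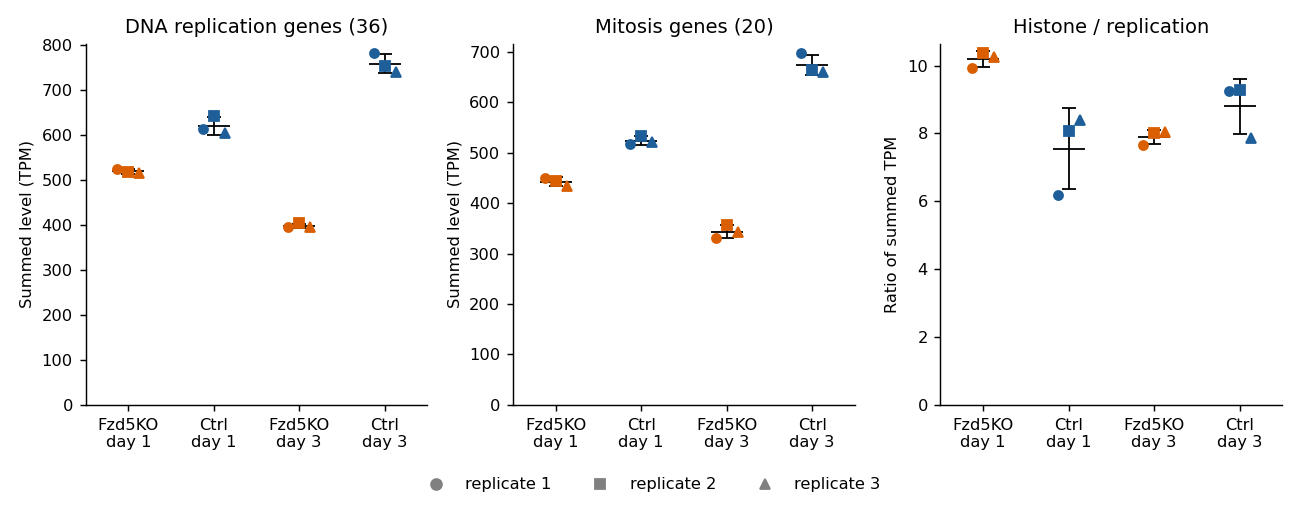
Summed TPM of 36 DNA replication genes and of 20 mitosis genes, and the ratio of the histone sum to the replication sum, in each library; points are libraries, bars means and whiskers SD (n = 3), and each axis starts at 0. The replication sums are lower in Fzd5KO on both days, while the ratio is higher in Fzd5KO at day 1 (9.94 to 10.4, against 6.20 to 8.39 in Ctrl) and overlaps at day 3.

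Factors that make or process histone mRNA also fell at day 3. Of 25 tested genes 23 fell (median −0.46) and none rose, and 8 fell at day 1, where the median of −0.13 was near that of all tested genes and none rose. Beside these counts, 38.5% of all tested genes fell at day 3 and 22.8% at day 1. Slbp, which encodes the protein that binds the stem-loop, was at 25.1 ± 1.88 TPM in Fzd5KO and 36.5 ± 1.24 TPM in Ctrl at day 3 (log2 change −0.53 ± 0.055, limma adjusted p = 7.5e-06). Npat, the coactivator of histone genes, changed by −0.74 ± 0.097 and Cdk2, the kinase that acts on it in S phase, by −0.86 ± 0.065. Casp8ap2, which encodes the histone locus body protein FLASH, was at −0.30 ± 0.11 (limma adjusted p = 0.039). The Casp8ap2 call was lost with quantile normalization (−0.07, limma adjusted p = 0.64), median-of-ratios scaling (−0.17, 0.20) or no filter on low genes (0.081). It was lost as well when Fzd5KO day 1 replicate 2, any 1 of the Fzd5KO day 3 libraries or Ctrl day 3 replicate 1 was left out, and the last of these moved it to −0.195. At day 1 Slbp (−0.26 ± 0.055), Npat (−0.34 ± 0.097) and Cdk2 (−0.36 ± 0.065) had also fallen, whereas Casp8ap2 had a difference of 0.02 ± 0.11, which turned to −0.05 without Fzd5KO day 1 replicate 1, −0.06 without Ctrl day 1 replicate 1 and −0.0075 without Ctrl day 1 replicate 2. The day 1 calls of Npat and Slbp were lost under each of the other 3 scalings, quantile normalization (−0.18 for Npat, −0.14 for Slbp), median-of-ratios scaling (−0.21 and −0.10) and rescaled TPM (−0.27 and −0.16). Npat also lost its call with no filter (limma adjusted p = 0.059), with only the libraries compared (0.052), and when replicate 1 or 2 of Fzd5KO at day 1 or replicate 2 or 3 of Ctrl at day 1 was left out (0.062 to 0.087). Of the whole list, 2 to 3 genes fell at day 1 and 2 to 4 rose under these scalings, and 18 to 25 fell at day 3 and none rose (25 genes tested, or 26 with rescaled TPM).

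Of 9 tested replication-independent histone variants, which are made outside S phase as well, 7 fell at day 3 (38.5% of all tested genes) and 4 at day 1 (22.8%), and none rose. The 4 at day 1 were Cenpa (−0.33), H1f0 (−0.22), H2afy (−0.24) and H2afv (−0.39), of which H2afv alone kept its call under all 3 other scalings (quantile, median-of-ratios and rescaled TPM). H2afx, at 0.30 and not called at day 1 (limma adjusted p = 0.12), was called higher under each of these scalings (0.43, 0.46 and 0.42; limma adjusted p = 0.041, 0.023 and 0.042), and H2afz with median-of-ratios scaling (0.18, limma adjusted p = 0.037). At day 3 all 11 variants of the list, tested or not, summed to 75.4% of Ctrl. H2afv (−0.93 ± 0.050), Cenpa, the centromeric H3 (−0.91 ± 0.091), and H2afx (−0.86 ± 0.13) changed most, and H2afz (−0.48 ± 0.067), H3f3a (−0.43 ± 0.058) and the linker variant H1f0 (−0.28 ± 0.045) less. H3f3b, a gene of H3.3, was at 217 ± 4.96 TPM in Fzd5KO and 219 ± 11.5 TPM in Ctrl (−0.02 ± 0.051, limma adjusted p = 0.81), a difference that was called at 0.13 with median-of-ratios scaling, −0.20 with quantile normalization and −0.11 with rescaled TPM. It was also above 0 without Fzd5KO day 3 replicate 1 (0.0013) or Ctrl day 3 replicate 1 (0.018). The ratio of the sum of the 62 histone genes to that of the 11 variants was 3.74 ± 0.0043 in Fzd5KO at day 3 and 5.97 ± 0.314 in Ctrl (SD, n = 3 each).

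Among 23 histone chaperones 19 fell at day 3 (38.5% of all tested genes) and 1 rose (24.3%), Daxx, named for that reason after the values were seen. Asf1b, the chaperone of dividing cells that carries H3 and H4 (−0.97 ± 0.084), Nasp, which holds a soluble H3 and H4 reserve (−0.94 ± 0.066), and Ssrp1 of the FACT complex (−0.80 ± 0.058) fell. Npm1 fell at day 3 (−0.74 ± 0.037) and rose at day 1 (0.16 ± 0.037, limma adjusted p = 0.011), the only one of the list that rose at day 1, where 10 fell (22.8% of all tested genes). Under the other 3 scalings 2 fell and 2 rose at day 1.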

How the data were processed

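Total RNA (RNeasy kit) was turned into stranded libraries (TruSeq Stranded Total RNA), per the labels' protocols. Reads were handled with bcl2fastq 2.18, STAR 2.7.3a and RSEM on mm10, per the submitters' processing notes. The authors deposited 1 table of TPM values with a column for each library. Coordinates, counted from 1, and transcripts come from GENCODE mouse release 21. A gene entered the tests with 1 TPM or more in 3 or more libraries, 14510 in all. limma 3.58.1 (R 4.3.3) fitted log2(TPM + 1) with 1 mean per group across the 12 libraries, leaving 8 residual degrees of freedom, and with a variance that followed intensity. Calls needed a Benjamini-Hochberg adjusted p under 0.05 across those 14510 genes. This scale understates the change of low genes. Class sums were described, not tested.

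The genes named were the 3 most abundant of each class, up to 10 of the largest called changes in each direction per genotype comparison and 5 per time comparison, up to 4 called genes of each other list and 13 given genes, with exceptions marked in the text. The histone genes and lists were chosen with earlier results of these data known. Alternatives were 2 pseudocounts, 2 filters, 3 scalings, 2 variance models, a replicate block, a fit to the compared libraries alone, a log2 minimum of 1 and each library left out. The fit was tested on simulated data.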

Additional observations from a re-analysis of the deposited data

Results flagged for a closer look

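The effect of the knockout differed between the days for 54 of the 62 histone genes by the limma interaction test, each with the day 3 effect the lower. For the 10 with the largest difference, the day 3 effect minus the day 1 effect was −2.37 for Hist1h2ah, −2.28 for Hist1h3h, −1.93 for Hist1h2ai, −1.82 for Hist1h2ab, −1.82 for Hist1h2af, −1.74 for Hist2h3b, −1.70 for Hist1h4a, −1.59 for Hist1h3b, −1.59 for Hist1h2ak and −1.56 for Hist1h2bm on the log2 scale. All 10 were smaller without Ctrl day 1 replicate 1, at −1.78 for Hist1h2ah, −1.38 for Hist1h2ai and −1.53 for Hist1h2ab. Hist1h2af was then at −1.39, Hist2h3b at −1.37, Hist1h4a at −1.59, Hist1h3b at −1.44, Hist1h2ak at −1.30 and Hist1h2bm at −1.45. Hist1h3h was −1.45 without that library, where its level was 9.93 TPM against 59.1 and 61.2 TPM in replicates 2 and 3. Its call was lost in the 7 fits that left out 1 of the Fzd5KO day 1 libraries or replicate 1 or replicate 2 of either day 3 group.

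The class sums of H2A, H2B and H3 and the sum of all 62 genes had every Fzd5KO library above every Ctrl library at day 1 and below every one at day 3. The log2 ratio at day 3 minus that at day 1 was −1.26 for all genes, −1.40 for H2A, −1.16 for H2B and −1.47 for H3. The difference was not tested for these sums. At day 1 the separation from Ctrl replicates 2 and 3 was small: the H2B sums were 1187, 1230.3 and 1211 TPM in Fzd5KO, against 1019, 1178 and 1182 TPM in Ctrl.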

How the results depend on the processing

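In the counts of called histone genes, 263 of the 296 alternative values stayed within 1.5 times the main count or at a main count of 0. The main count was 0 for rises at day 3, in the mean over the days, in the interaction and over time in Fzd5KO, and for falls over time in Ctrl. With these included, the 263 does not measure how steady the other counts were. Of 154 alternative class sums 139 moved by less than the replicate SD. At day 1 the count that fell (2) was 1 with no filter, quantile normalization, the replicate block, a log2 minimum of 1, only the libraries compared, or both lower Ctrl libraries left out, and 0 with median-of-ratios scaling, and 1 to 3 with each library left out. The count that rose (2) was 1 with no filter, only the libraries compared or both lower Ctrl libraries left out, 9 with quantile normalization or rescaled TPM, 18 with median-of-ratios scaling, 4 with array weights, 0 with a log2 minimum of 1, and 1 to 5 with each library left out. The log2 minimum of 1 left 37 that fell at day 3, 2 in the mean over the days, and over time 6 that fell in Fzd5KO and 1 that rose in Ctrl. Median-of-ratios scaling gave 2 that were higher in the mean over the days, and only the libraries compared gave 1 that rose over time in Fzd5KO. With each library left out, 50 to 58 fell at day 3 and 51 to 56 were called in the interaction. The replicate block left 57 falls at day 3, 53 interaction calls, 40 in the mean over the days, and 41 Ctrl rises and 50 Fzd5KO falls over time, while same-numbered libraries deviated together with correlations of only −0.069 to 0.093, so the numbers were not taken as pairs. Under the block Hist1h4n was called at day 3 (−2.10, limma adjusted p = 0.0486) and Casp8ap2 was not (0.0525). The cause was not tested for any of these.

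On the log2 scale, median-of-ratios scaling put the day 1 sums at 0.073 for H1, 0.27 for H2B and 0.22 for H4, the day 3 sums at −0.94 for all genes, −0.73 for H1, −0.91 for H2B and −1.03 for H4, and the Fzd5KO sum over time at −0.90. Rescaled TPM gave 0.02 for H1 and 0.21 for H2B at day 1, −0.97 for H1 and −1.15 for H2B at day 3, and −0.99 over time in Fzd5KO. Without Hist1h1a the H1 sum was at −0.0245 at day 1 and −0.73 at day 3. Reversals of sign were, with median-of-ratios scaling, Asf1b (0.0295), H3f3a (0.058), H3f3b (0.044) and Pcna (0.085) at day 1 and H3f3b (0.13), Hist1h1c (0.028) and Hist1h2bc (0.067) at day 3, with quantile normalization Asf1b (0.035) and Pcna (0.031) at day 1, and with rescaled TPM H3f3a (0.0061) and Pcna (0.033) at day 1. Leaving out libraries turned Casp8ap2 at day 1 (range −0.057 to 0.12, and −0.057 without both lower Ctrl libraries), H2afz at day 1 (−0.024 to 0.052, with −0.0017 without Ctrl day 1 replicate 3) and H3f3b at day 3 (−0.057 to 0.018). Depth is unknown, so no limit for low genes can be given.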

Other observations

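Ctrl day 1 replicate 1 was lower for short histone transcripts than for long ones. The 31 genes whose longest annotated transcript was at most the median of 536.5 bases were at a median of 69.3% of replicates 2 and 3, and the 31 longer ones at 83.0%. In Ctrl day 3 replicate 3 these medians were 79.5% and 85.8%. Length was not separated from class, since no split within a class was made. In Ctrl day 1 replicate 1, H1 genes (median length 1560 bases) were at 94.4% and H2A genes (481 bases) at 58.9%. H3 genes (625 bases) were at 67.6%, H2B genes (571 bases) at 81.4% and H4 genes (539 bases) at 81.4%.

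The make-up of histone mRNA by class moved little beside its amount. H4 was 27.2 ± 0.628% of the histone sum in Fzd5KO at day 3 and 28.9 ± 1.14% in Ctrl, and H2A 26.7 ± 0.602% in Fzd5KO and 25.7 ± 1.74% in Ctrl (SD, n = 3 each). H1 was 8.08 ± 0.136% in Fzd5KO and 7.05 ± 0.666% in Ctrl, where the range of Fzd5KO was 7.96 to 8.23% and that of Ctrl 6.58 to 7.81%. The widest departure was that of Ctrl day 1 replicate 1, with 19.4% H2A and 10.0% H1.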
